A study of Mus musculus with 16 samples.

Results

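A set of 10 genes that tumor macrophages express, *Apoe*, *C1qa*, *C1qb*, *C1qc*, *Lyz2*, *Csf1r*, *Adgre1*, *Itgam*, *Fcgr3* and *Tyrobp*, was followed in CD4+ and CD8+ tumor-infiltrating T lymphocytes (TILs) as a measure of RNA from other cells. They were chosen by name, are 10 of the 55450 rows of the count table, and each symbol has 1 row. The TILs were taken from tumors of the mouse melanoma line B16F10 that had grown under the skin of wild-type (WT) mice (C57BL/6J) and in *Sirt2*-/- mice (B6.129-Sirt2tm1.1Fwa/J), which lack the deacetylase SIRT2 in all tissues, macrophages included. Mice of the study were 7 to 8 weeks old and controls were matched for age and sex. The 4 groups, WT CD4+, *Sirt2*-/- CD4+, WT CD8+ and *Sirt2*-/- CD8+, have 4 libraries each, and the labels name no drug treatment. TILs were prepared from digested tumors on a Percoll gradient and with beads against CD3ε, whereas the step that separated CD4+ from CD8+ cells is not described. The labels do not say which libraries come from 1 animal, so the p-values measure the spread between these libraries.

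Macrophages are phagocytes that build up in most tumors and that take up dying cells, present antigen and release complement and lipid-carrying proteins. Their survival rests on the receptor CSF1R, and the transcription factor PU.1, encoded by *Spi1*, switches on much of their gene program. T cells are not a usual source of C1q, CSF1R or F4/80. *Itgam*, *Fcgr3* and *Tyrobp* are also used by NK cells and neutrophils, *Lyz2* by neutrophils and *Apoe* by many cell types. In bulk RNA, fewer macrophages and less RNA per macrophage cannot be told apart.

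On GRCm38 (GENCODE mouse release 21), the 3 C1q genes lie side by side on the minus strand, *C1qb* at chr4:136880129-136886187, *C1qc* at chr4:136889804-136893065 and *C1qa* at chr4:136895917-136898803. *Lyz2* lies at chr10:117277331-117282321 and *Fcgr3* at chr1:171051174-171064935, both on the minus strand, and *Adgre1* at chr17:57358691-57483527 on the plus strand. *Apoe* at chr7:19696109-19699188, *Tyrobp* at chr7:30413760-30417585 and *Itgam* at chr7:128062640-128118491 share chromosome 7 with *Sirt2*, at distances of 9.07, 1.63 and 99.3 Mb. *Csf1r* overlaps *Hmgxb3* on the opposite strand, which had up to 3721 counts in a library, and the setting used for strand in the counting is not given in the sources used here. *Lyz1*, a close relative of *Lyz2*, had 11 counts in 1 library and none in the other 15.

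The stretches before the start sites of *C1qb*, *C1qc*, *Lyz2* and *Itgam* are shown because *C1qb* and *C1qc* were highest in the same libraries and because PU.1, whose binding sites often hold the letters GAGGAA, acts on genes of this kind. The bases are from RefSeq (GRCm38.p6), 5′ to 3′ on the strand of the gene, from 250 bases before the RefSeq start and without any base that GENCODE places inside the gene. Capitals mark GAGGAA or, for the other strand, TTCCTC.
C1qb: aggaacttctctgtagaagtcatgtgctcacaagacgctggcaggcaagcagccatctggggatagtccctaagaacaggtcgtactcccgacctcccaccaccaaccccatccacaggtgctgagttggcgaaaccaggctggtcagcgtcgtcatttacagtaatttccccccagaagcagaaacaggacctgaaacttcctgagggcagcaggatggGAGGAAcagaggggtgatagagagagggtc
C1qc: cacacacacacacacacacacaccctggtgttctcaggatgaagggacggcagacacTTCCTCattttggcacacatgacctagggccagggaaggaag
Lyz2: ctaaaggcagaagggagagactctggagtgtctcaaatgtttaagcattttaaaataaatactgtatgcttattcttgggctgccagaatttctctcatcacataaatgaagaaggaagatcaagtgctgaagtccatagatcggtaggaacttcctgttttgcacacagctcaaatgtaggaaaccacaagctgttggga
Itgam: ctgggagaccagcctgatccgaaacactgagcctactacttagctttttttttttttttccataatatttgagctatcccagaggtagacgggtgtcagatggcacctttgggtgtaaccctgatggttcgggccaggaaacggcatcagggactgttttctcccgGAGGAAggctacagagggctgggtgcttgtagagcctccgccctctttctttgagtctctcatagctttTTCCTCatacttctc
They span chr4:136886201-136886450 for *C1qb*, chr4:136893066-136893164 for *C1qc*, chr10:117282322-117282522 for *Lyz2* and chr7:128062390-128062639 for *Itgam*. The RefSeq table held 6 of the 10 genes. GAGGAA or TTCCTC lay within the 250 bases before the start in 4 of these 6, at 25 bases from the start in *C1qb*, at 188 in *C1qc*, at 79 and 10 in *Itgam* and at 1 in *Fcgr3*, and it was absent from the windows used for *Apoe* and *Lyz2*. *Apoe* has 3 listed windows, and 2 of them held the letters. Of 32851 promoter windows of this length, 23.3% held them, so a match is a description of the sequence and not a site. *C1qa*, *Csf1r*, *Adgre1* and *Tyrobp* had no entry.

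Total counts per library ranged from 28000949 to 62407851. *Sirt2* had at most 12.3 CPM (counts per 1000000 counted reads) in the *Sirt2*-/- libraries of both cell types against at least 32.7 CPM in WT libraries, and *Sirt2*-/- CD4+ replicate 4 had no *Sirt2* count. CD3 was abundant in all libraries, with a summed CPM of *Cd3d*, *Cd3e* and *Cd3g* from 633.8 to 1914. In 3 libraries few genes were detected, with 8169 genes above 0 in *Sirt2*-/- CD4+ replicate 4, 14411 in WT CD8+ replicate 1 and 12587 in WT CD4+ replicate 1, while the other 13 had 17730 to 22138. *C1qb*, *Csf1r*, *Adgre1*, *Fcgr3* and *Tyrobp* averaged 30 to 100 counts outside such a library, and of all genes in that range 87.8%, 39.3% and 59.4% had no count in these 3 libraries, in the same order, and at most 8.49% in any of the others. A 0 in these 3 libraries therefore says little about the level of a gene.

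**Figure D1:**
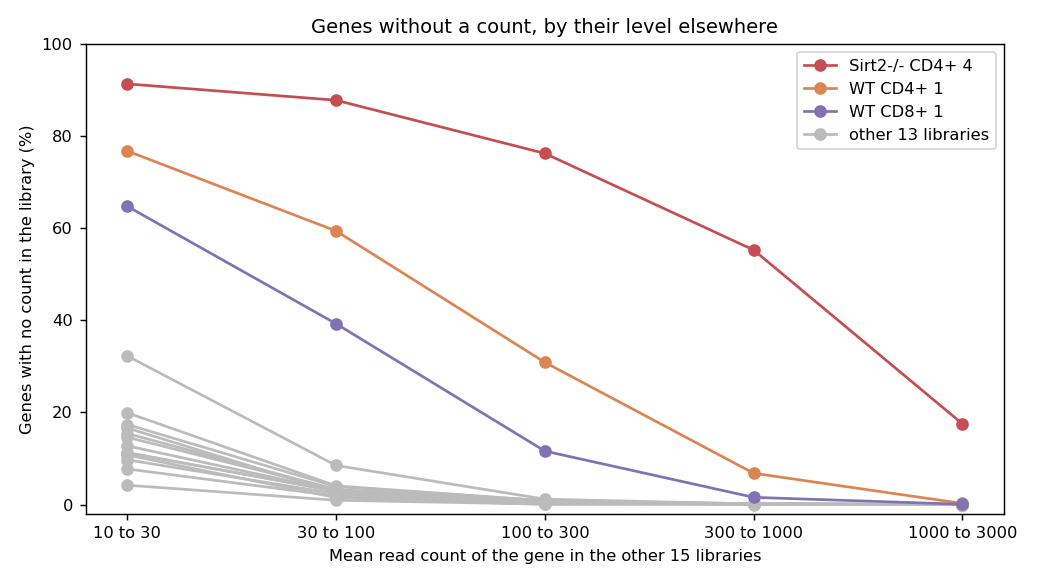
Share of genes without a count (y axis, %) in each of the 16 libraries, by the mean count of the gene in the other 15 libraries (x axis). The 3 coloured libraries lie above the 13 grey ones, and *Sirt2*-/- CD4+ replicate 4 still lacked 76.2% of the genes with 100 to 300 counts elsewhere.

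Together the 10 genes took a small share of the RNA. Their summed level was 15.7 CPM ± 1.60 (SD, n = 4) in WT CD4+, 57.4 ± 52.7 in *Sirt2*-/- CD4+, 10.4 ± 3.21 in WT CD8+ and 24.6 ± 16.2 in *Sirt2*-/- CD8+ TILs, and no library had more than 0.0134% of its counts on them. Per 1000 counts on the CD3 genes they had 4.57 to 41.1 counts in 15 libraries and 210.8 in *Sirt2*-/- CD4+ replicate 4. In that library *Apoe* alone made up 92.3% of the sum and *Lyz2* the rest, with the other 8 genes at 0. Without this library the mean of *Sirt2*-/- CD4+ TILs was 32.0 CPM. *Apoe* had a median share of 53.6% of the summed counts over the 16 libraries, with a range from 20.9% to 99.4%. For the 5 genes with the narrowest use by macrophages, the C1q chains, *Csf1r* and *Adgre1*, the summed level was 1.62 CPM ± 1.26 in WT CD4+, 4.95 ± 6.09 in *Sirt2*-/- CD4+, 0.854 ± 0.740 in WT CD8+ and 6.07 ± 6.53 in *Sirt2*-/- CD8+ TILs. Each *Sirt2*-/- mean was raised by 1 library. Without *Sirt2*-/- CD4+ replicate 3 (13.7 CPM) the first was 2.05 ± 2.25, and without *Sirt2*-/- CD8+ replicate 4 (15.8 CPM) the second was 2.83 ± 0.854 (SD, n = 3). The mean of 2.05 includes the 0 of *Sirt2*-/- CD4+ replicate 4, where few genes were detected, beside 1.69 and 4.45 CPM in replicates 1 and 2. Each WT mean also includes a 0 from its replicate 1, a library with few genes. By library this sum was 0 to 2.70 CPM in WT CD4+ and 0 to 13.7 CPM in *Sirt2*-/- CD4+ TILs. In CD8+ TILs it was 0 to 1.56 CPM in WT and 1.85 to 15.8 CPM in *Sirt2*-/- libraries, without overlap. Taken singly, each of these 5 genes overlapped between the CD8+ groups. No share over all genes can be set beside a sum of chosen genes, so its separation is a description only. The sum was not tested.

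**Figure D2:**
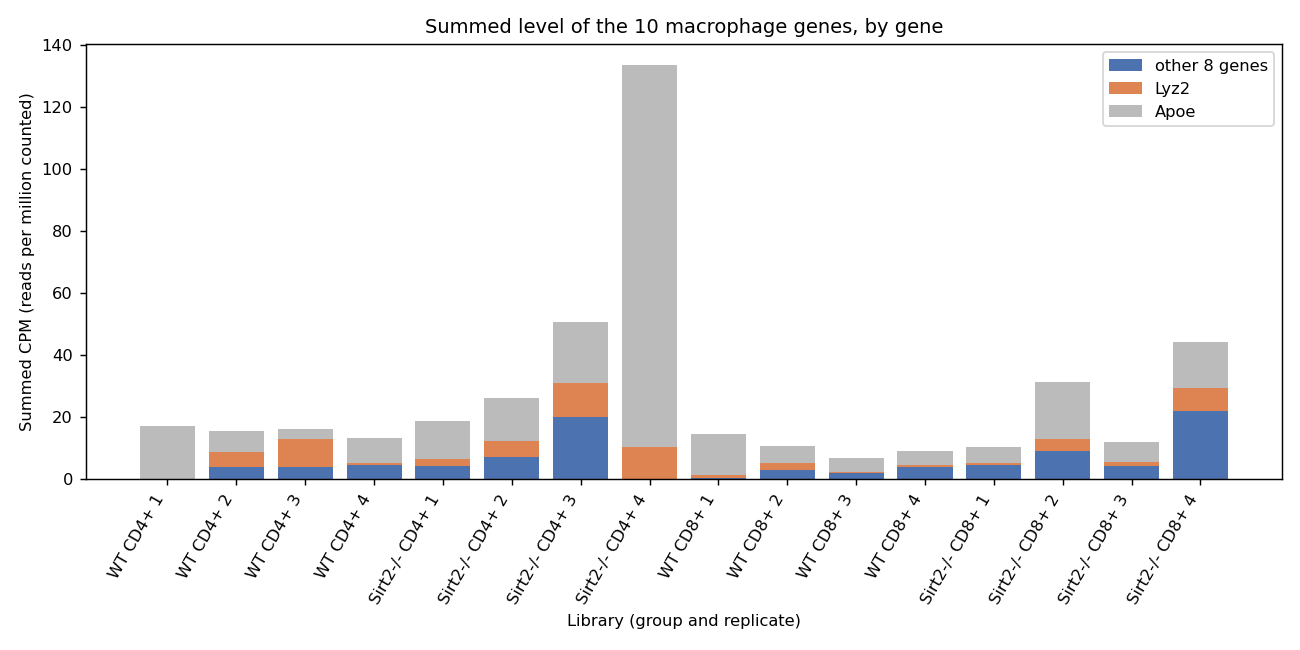
Summed level of the 10 genes (y axis, CPM) in each of the 16 libraries (x axis), stacked as *Apoe* (grey), *Lyz2* (orange) and the other 8 genes (blue). *Sirt2*-/- CD4+ replicate 4 reaches 133.6 CPM with no blue part, and the blue part is tallest in *Sirt2*-/- CD8+ replicate 4 (22.0 CPM) and *Sirt2*-/- CD4+ replicate 3 (20.2 CPM).

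Per kilobase of exon, the median level over the 16 libraries ran from *Apoe* (4.70 CPM per kb) through *Lyz2* (1.65), *Tyrobp* (1.41), *Fcgr3* (0.424), *C1qb* (0.262), *C1qa* (0.196), *Csf1r* (0.131), *Adgre1* (0.0818) and *C1qc* (0.0511) to *Itgam* (0.0422). For scale, *Cd3e*, a chain of the T cell receptor complex, had a median of 128 CPM per kb. The ranges of all 9 neighbouring pairs in this order overlapped. *Apoe* was above *Lyz2* in 14 libraries and *Tyrobp* above *Fcgr3* in 14, while each of the other 7 pairs kept its order in 7 to 9 of the 16.

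**Figure D3:**
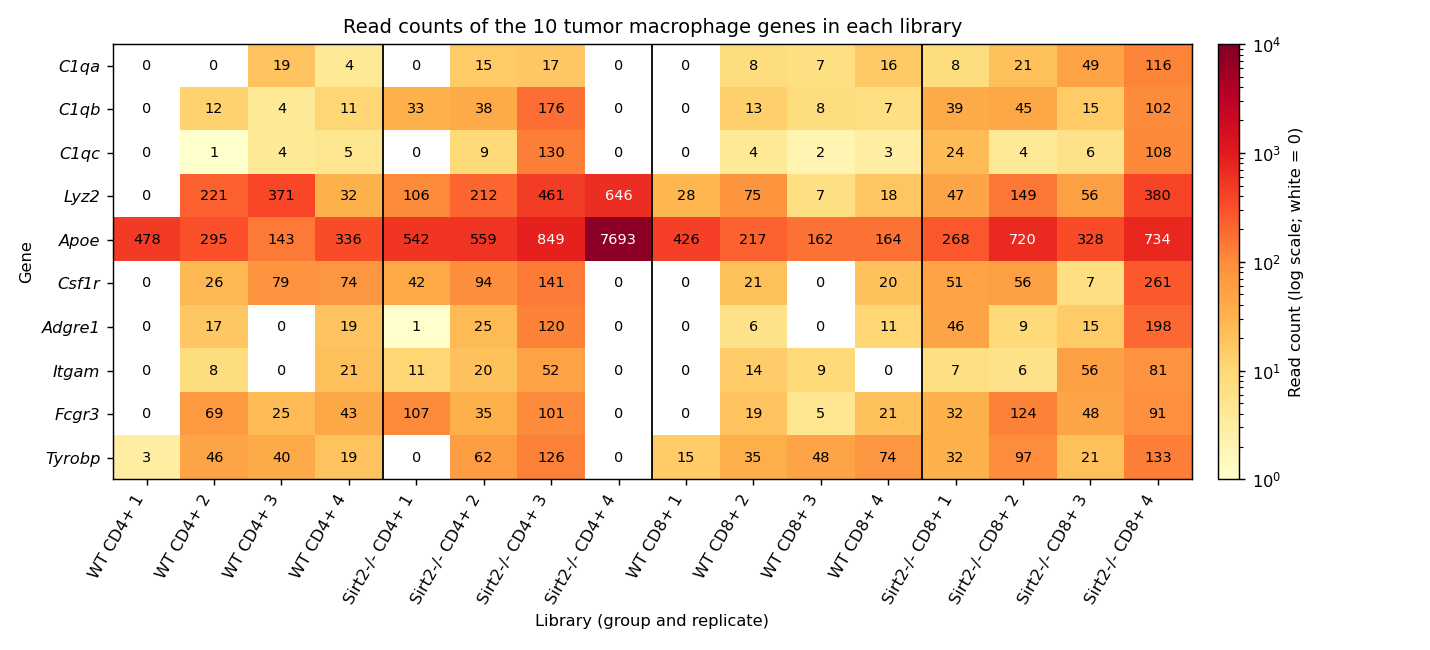
Read counts of the 10 genes (rows) in the 16 libraries (columns, 4 per group), printed in each cell and shaded on a log scale, with white for 0. The C1q, *Csf1r* and *Adgre1* rows are darkest in *Sirt2*-/- CD4+ replicate 3 and *Sirt2*-/- CD8+ replicate 4, and *Sirt2*-/- CD4+ replicate 4 holds only *Lyz2* and *Apoe*.

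The first group of genes encodes what macrophages secrete. C1q, the recognition unit that starts the classical complement pathway, is built from equal parts of 3 chains encoded by *C1qa*, *C1qb* and *C1qc*. *C1qa* had 0, 0, 19 and 4 counts in WT CD4+ replicates 1 to 4 and 0, 15, 17 and 0 in *Sirt2*-/- CD4+ TILs. In CD8+ TILs it had 0, 8, 7 and 16 counts in WT and 8, 21, 49 and 116 in *Sirt2*-/- libraries. The CD4+ groups overlapped throughout, and in CD8+ TILs a *Sirt2*-/- library was above a WT library in 13 of 16 pairs by CPM.

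*C1qb* had 0, 12, 4 and 11 counts in WT CD4+ and 33, 38, 176 and 0 in *Sirt2*-/- CD4+ TILs. In CD8+ TILs the counts were 0, 13, 8 and 7 in WT and 39, 45, 15 and 102 in *Sirt2*-/- libraries. In CD8+ TILs 15 of 16 pairs had the *Sirt2*-/- library higher, the exception being WT replicate 2 (0.344 CPM) over *Sirt2*-/- replicate 3 (0.301 CPM). *C1qc* had 0, 1, 4 and 5 counts in WT CD4+, 0, 9, 130 and 0 in *Sirt2*-/- CD4+, 0, 4, 2 and 3 in WT CD8+ and 24, 4, 6 and 108 in *Sirt2*-/- CD8+ TILs. Of its 300 counts in the series, 79.3% were in *Sirt2*-/- CD4+ replicate 3 and *Sirt2*-/- CD8+ replicate 4, and for *C1qb* (503 counts) and *C1qa* (280 counts) the share of these libraries was 55.3% and 47.5%. The chains were not in equal proportion: in *Sirt2*-/- CD4+ TILs, *C1qa* had 32 counts against 247 of *C1qb*, and in *Sirt2*-/- CD8+ TILs 194 against 201, for exon lengths of 1040 and 1088 bases. At counts this low, 3 counts of a library, the most that a count of 0 allows, correspond to 0.0481 to 0.107 CPM, a limit that covers counting error only.

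*Lyz2* encodes lysozyme M, an enzyme that cuts bacterial cell walls. It had 0, 221, 371 and 32 counts in WT CD4+ and 106, 212, 461 and 646 in *Sirt2*-/- CD4+ TILs. In CD8+ TILs it had 28, 75, 7 and 18 counts in WT and 47, 149, 56 and 380 in *Sirt2*-/- libraries. Both pairs of genotype groups overlapped, and the mean was 3.65 CPM ± 4.12 in WT CD4+, 7.18 ± 4.09 in *Sirt2*-/- CD4+, 0.886 ± 0.783 in WT CD8+ and 3.37 ± 3.15 in *Sirt2*-/- CD8+ TILs (SD, n = 4).

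*Apoe*, which encodes the lipid carrier apolipoprotein E, was found in all 16 libraries. The counts in CD4+ TILs were 478, 295, 143 and 336 in WT and 542, 559, 849 and 7693 in *Sirt2*-/- libraries. Those in CD8+ TILs were 426, 217, 162 and 164 in WT and 268, 720, 328 and 734 in *Sirt2*-/- libraries. In both WT groups the highest *Apoe* level was in replicate 1, at 17.1 CPM in CD4+ and 13.2 CPM in CD8+ TILs, the libraries in which 8 and 7 of the 10 genes were at 0. *Sirt2*-/- CD4+ replicate 4 stood at 123 CPM, against 12.1 to 19.9 in the other libraries of its group. Of these 3 libraries, the CD4+ ones also had the highest summed level of 7 melanocyte genes, 105.7 CPM in WT replicate 1 and 72.9 CPM in *Sirt2*-/- replicate 4, against 3.84 to 15.7 CPM elsewhere. All 7 had a count in WT CD4+ replicate 1, but only *Mitf* (48.3 CPM) and *Dct* (24.6 CPM) in *Sirt2*-/- CD4+ replicate 4. The part of melanoma cell RNA in the *Apoe* counts was not tested.

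The second group encodes surface receptors. *Csf1r*, the receptor for CSF1 and IL-34, had 0, 26, 79 and 74 counts in WT CD4+, 42, 94, 141 and 0 in *Sirt2*-/- CD4+, 0, 21, 0 and 20 in WT CD8+ and 51, 56, 7 and 261 in *Sirt2*-/- CD8+ TILs. *Adgre1*, which encodes the macrophage surface protein F4/80, had 0, 17, 0 and 19 counts in WT CD4+ and 1, 25, 120 and 0 in *Sirt2*-/- CD4+ TILs. In CD8+ TILs *Adgre1* had 0, 6, 0 and 11 counts in WT and 46, 9, 15 and 198 in *Sirt2*-/- libraries. Both genes had their highest CPM in *Sirt2*-/- CD8+ replicate 4, with *Sirt2*-/- CD4+ replicate 3 next, and these libraries held 46.1% of all *Csf1r* and 68.1% of all *Adgre1* counts.

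*Itgam* encodes CD11b, the α chain of complement receptor 3. It had 0, 8, 0 and 21 counts in WT CD4+, 11, 20, 52 and 0 in *Sirt2*-/- CD4+, 0, 14, 9 and 0 in WT CD8+ and 7, 6, 56 and 81 in *Sirt2*-/- CD8+ TILs, with overlap in both genotype pairs. *Fcgr3*, a receptor for the constant part of IgG, had 0, 69, 25 and 43 counts in WT CD4+ and 107, 35, 101 and 0 in *Sirt2*-/- CD4+ TILs. In CD8+ TILs it had 0, 19, 5 and 21 counts in WT and 32, 124, 48 and 91 in *Sirt2*-/- libraries. *Fcgr3* was the one gene of the 10 whose CD8+ groups did not overlap, with 0 to 0.575 CPM in WT and 0.610 to 3.15 CPM in *Sirt2*-/- libraries, where 1.48% of the genes tested were separated with *Sirt2*-/- higher and 1.45% with it lower. In CD4+ TILs none of the 10 was separated, where 1.28% of the genes tested were with *Sirt2*-/- higher and 1.53% with it lower.

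*Tyrobp* encodes DAP12, the adaptor through which TREM2 and several NK cell receptors signal. It had 3, 46, 40 and 19 counts in WT CD4+, 0, 62, 126 and 0 in *Sirt2*-/- CD4+, 15, 35, 48 and 74 in WT CD8+ and 32, 97, 21 and 133 in *Sirt2*-/- CD8+ TILs. All groups overlapped. The means were 0.638 CPM ± 0.438 in WT CD4+, 1.12 ± 1.42 in *Sirt2*-/- CD4+, 1.19 ± 0.662 in WT CD8+ and 1.54 ± 1.19 in *Sirt2*-/- CD8+ TILs (SD, n = 4). Of 8 NK cell genes, the summed CPM was 276.6 to 350.3 in 7 CD8+ libraries and 586.4 in *Sirt2*-/- CD8+ replicate 4, and much of it was *Eomes*, which CD8+ T cells also use. The part of NK cells in the *Tyrobp* counts was not tested.

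Whether *Sirt2*-/- libraries carried more macrophage RNA than WT libraries was first read from the group means. In both CD4+ and CD8+ TILs, the mean and the median CPM of each of the 10 genes were higher in *Sirt2*-/- than in WT libraries, where 46.3% (CD4+) and 51.5% (CD8+) of all genes with a count had a higher mean. The 10 genes were read in the same libraries, so their directions are not independent of each other. None of the differences passed the test across all genes (edgeR's quasi-likelihood test, two-sided, Benjamini-Hochberg adjusted p below 0.05): 0 of 8 members tested were called in CD4+ TILs, where 0% of 15070 genes were, and 0 of 8 in CD8+ TILs, where 0.00654% of 15302 genes, namely *Sirt2* alone, were.

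In CD4+ TILs, *Apoe* had the lowest p of the members (log2 fold change of *Sirt2*-/- over WT 2.39, SE 0.91, edgeR adjusted p = 1.0). It was the 1 member with an unadjusted p below 0.05, where 1.26% of the genes tested had one. Without *Sirt2*-/- CD4+ replicate 4 the *Apoe* difference was 0.80 (SE 0.48, adjusted p = 1.0), and without both CD4+ libraries with few genes it was 1.25 (SE 0.36, adjusted p = 0.75). *C1qb* had a larger and less certain difference of 3.08 (SE 1.89). Without *Sirt2*-/- CD4+ replicate 3, which held 176 of its 247 counts in *Sirt2*-/- CD4+ TILs, it was 1.73 (SE 2.03). The differences of *Csf1r*, *Adgre1* and *Tyrobp* without that library were −0.05, −0.11 and −0.36, against 0.54, 1.89 and 0.77 with it. *C1qa* and *C1qc* did not pass the count filter, which a gene could pass through the group where it is high.

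In CD8+ TILs, 4 members had an unadjusted p below 0.05, where 3.78% of the genes tested had one. These were *Adgre1* (log2 fold change 3.51, SE 1.38), *C1qb* (2.47, SE 1.03), *Fcgr3* (2.39, SE 1.04) and *Lyz2* (1.93, SE 0.84), each with an edgeR adjusted p of 0.986. *Csf1r* had 2.80 (SE 1.38), *C1qa* 2.22 (SE 1.13), *Apoe* 0.69 (SE 0.46) and *Tyrobp* 0.37 (SE 0.75). Fitted without a count filter, *C1qc* had 3.5 (SE 1.41) and *Itgam* 2.29 (SE 1.35). Without *Sirt2*-/- CD8+ replicate 4 the differences were 2.02 for *Adgre1*, 1.93 for *C1qb*, 2.33 for *Fcgr3*, 1.12 for *Lyz2*, 1.59 for *Csf1r* and −0.05 for *Tyrobp*, and no member then had an unadjusted p below 0.05. Without WT CD8+ replicate 1, the library with few genes, they were 3.12 for *Adgre1*, 2.07 for *C1qb*, 1.99 for *Fcgr3* and 1.19 for *Apoe*.

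**Figure D4:**
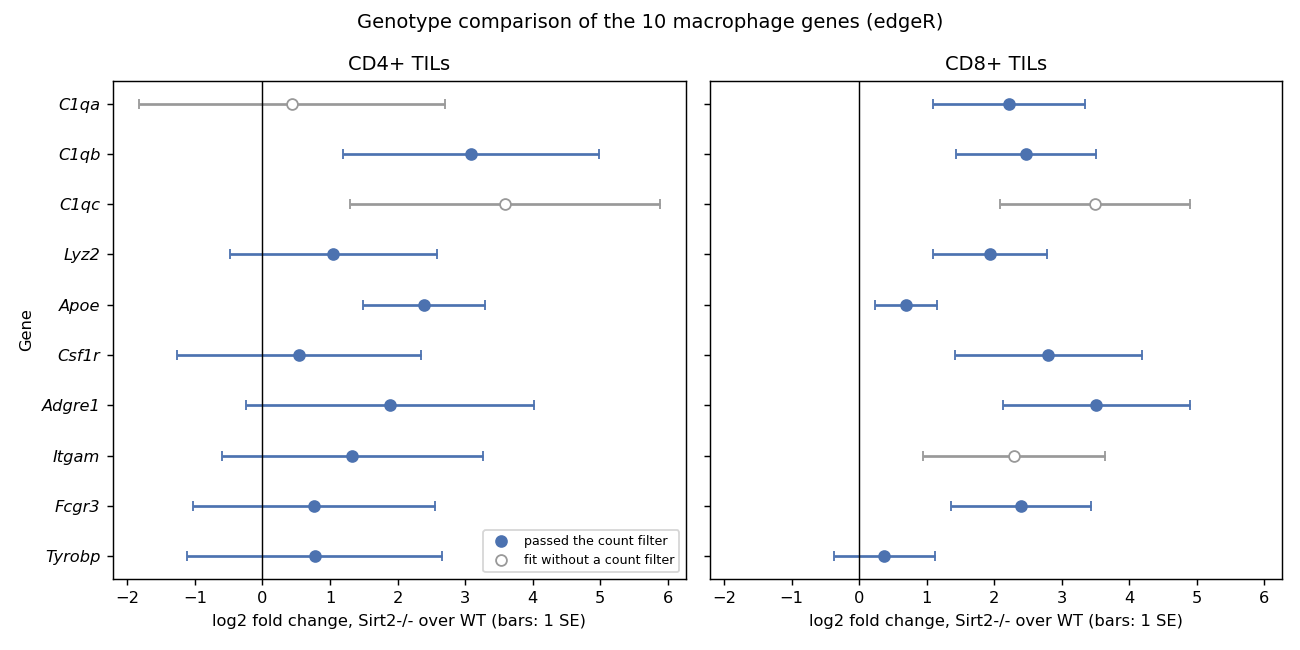
Log2 fold change of *Sirt2*-/- over WT TILs (x axis, bars 1 SE) for each of the 10 genes (y axis) in CD4+ (left) and CD8+ TILs (right), from edgeR, with open grey points for genes fitted without a count filter. All points lie above 0 and no gene passed the adjusted threshold.

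*Sirt2*-/- CD8+ replicate 4 also had the highest summed CPM of fibroblast and of neutrophil genes among the CD8+ libraries. The summed CPM of 7 fibroblast genes, mostly collagens, was 58.1 in it and 18.5 in *Sirt2*-/- CD8+ replicate 2, against 0 to 3.58 in the other 6 CD8+ libraries, and 61.1 in *Sirt2*-/- CD4+ replicate 2 and 17.0 in replicate 3, against 0.671 to 11.9 in the other 6 CD4+ libraries. All 7 genes had a count in at least 2 of the 16 libraries. The summed CPM of 10 neutrophil genes was 11.8 to 34.5 in 7 CD4+ libraries and 0 in *Sirt2*-/- CD4+ replicate 4, and in CD8+ TILs it was 4.13 in *Sirt2*-/- replicate 4, with 6 of the genes detected, against 0.439 to 1.99 in the other 7. Most of it in CD4+ TILs was *Il1r2*, a decoy receptor for IL-1 that regulatory T cells also carry, with counts in 15 libraries and up to 1176 in 1 of them, and *Mmp9*, with up to 333 counts. Of the defining neutrophil genes, *Retnlg* and *Cxcr2* were at 0 in all libraries, and *S100a8* and *S100a9* had at most 3 and 23 counts. The part of fibroblast or neutrophil RNA in the differences above was not tested.

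Whether the genotype effect differed between CD8+ and CD4+ TILs was asked in 1 fit of the 16 libraries. None of 9 members tested was called, where 0% of 17270 genes were, and none had an unadjusted p below 0.05, where 1.98% of genes did (edgeR). The largest differences were those of *Csf1r* (2.25, SE 2.37), *C1qa* (1.77, SE 2.39) and *Apoe* (−1.70, SE 1.11), so effects of several-fold in either direction were not detectable with 4 libraries of this spread.

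CD8+ were also compared with CD4+ TILs within each genotype, to see whether the 2 preparations held different amounts of these RNAs. In WT TILs 0 of 5 members tested were called, where 11.9% of 14892 genes were, and none had an unadjusted p below 0.05, where 24.3% of genes did. *Lyz2* had a log2 fold change of CD8+ over CD4+ of −2.08 (SE 1.43, edgeR adjusted p = 0.43), *Csf1r* had −2.04 (SE 1.80), *Fcgr3* −1.47 (SE 1.59), *Apoe* −0.38 (SE 0.56) and *Tyrobp* 0.83 (SE 1.10). With limma-voom and sample quality weights *Lyz2* was called (−2.70, adjusted p = 0.034), the only call of a member in any fit. In *Sirt2*-/- TILs 0 of 10 were called, where 2.24% of 15787 genes were, and none had an unadjusted p below 0.05, where 11.7% of genes did. *Apoe* had −2.03 (SE 0.90, adjusted p = 0.44), which became −0.44 without *Sirt2*-/- CD4+ replicate 4, and the other 9 lay between −1.14 (*Lyz2*) and 2.41 (*C1qa*, SE 1.59). No member separated the cell types in either genotype, where 12.8% of genes were separated with CD8+ higher and 9.48% with CD8+ lower in WT, and 14.6% and 6.75% in *Sirt2*-/- TILs.

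Other genes of the same cells and pathways came from lists written beside the 10. None of them was called between genotypes. Of 30 other macrophage genes, 22 were tested in CD4+ and 25 in CD8+ TILs. In CD4+ TILs 17 of the 22 had a difference above 0, with a median of 0.61 against −0.11 over all genes tested. In CD8+ TILs all 25 did, with a median of 0.69 against 0.01 over all genes tested, of which 7946 of 15302 were above 0. A gene could pass the count filter through the group where it is high, so these shares describe the genes tested and are no separate support. The list is not made of macrophage genes alone: its most abundant members, *Ctss*, *Cd84* and *Ly6c2*, at means of 252.9, 131.5 and 127.3 CPM, are also expressed by T cells. *Spi1*, which encodes PU.1, was named here after its values were seen and had means of 0.331, 0.567, 0.154 and 0.984 CPM in WT CD4+, *Sirt2*-/- CD4+, WT CD8+ and *Sirt2*-/- CD8+ TILs (log2 fold change in CD8+ TILs 2.64, SE 1.13, edgeR adjusted p = 0.986).

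Between cell types some of these genes did pass the test (edgeR, adjusted p below 0.05). In WT TILs *Cybb*, a subunit of the phagocyte NADPH oxidase (log2 fold change −3.35), *Lgmn*, a lysosomal protease (−3.53), *Ccr2*, a chemokine receptor (−1.53), and *Cd84* (−1.04) were lower in CD8+ than in CD4+ TILs, and *Ly6c2* (3.82) and *Cx3cr1*, the fractalkine receptor (1.58), were higher. In *Sirt2*-/- TILs *Ccr2* was lower (−2.01). Of 11 genes of the CSF1 axis, 8 were tested in WT and 10 in *Sirt2*-/- TILs, and *Runx1* was lower in both genotypes (−2.37 in WT, −2.51 in *Sirt2*-/-), *Csf2rb* (−2.75) and *Cebpb* (−2.0) were lower in WT and *Irf8* was higher in *Sirt2*-/- CD8+ TILs (1.40). Of 14 genes that act with apolipoprotein E in lipid transport, 9 were tested in each genotype, and the cholesterol exporter *Abcg1* (−1.76) and the lipid droplet protein *Plin2* (−0.97) were lower in WT CD8+ TILs. Of 21 partners of DAP12 and the Fc receptors, 10 were tested in WT and 13 in *Sirt2*-/- TILs, and the phosphatase *Ptpn6* was higher in WT CD8+ TILs (1.11). Of 17 complement genes beside C1q, 7 were tested in WT and 10 in *Sirt2*-/- TILs and none was called, where 11.9% and 2.24% of all genes tested were. None of these had an unadjusted p below 0.05 in edgeR.

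The 10 genes did not follow each other evenly. Over the 13 libraries with at least 15000 genes detected, with group means removed, Pearson's r of log2 CPM was 0.786 for *C1qc* with *Adgre1*, 0.745 for *C1qb* with *C1qc* and 0.741 for *Apoe* with *C1qb*, but 0.186 for *C1qa* with *C1qb* and −0.01 for *C1qc* with *Fcgr3*. These are descriptions over 13 libraries of the same tumor type, whose total counts ranged from 35605673 to 52424211. The part of depth in these correlations was not tested. The genes whose pattern was most like the summed level of the 10 by the same measure, among 8314 genes with a mean of at least 10 CPM, were *Il1rl1* (0.942), *Gzmb* (0.932), *Itgb3* (0.926), *Nr4a3* (0.925), *Trub2* (0.921), *Uvrag* (0.914), *Ppp1r16b* (0.914), *Gramd1b* (0.912), *Cd82* (0.908) and *Frmd4b* (0.904). Only 8 of the 30 other macrophage genes reached that level and could be ranked, *Ctss*, *Cd84*, *Ly6c2* and *Ccr2* among them, so the ranking says little about macrophage genes. *Gzmb*, a granule protease of cytotoxic T cells, ranged from 105.4 to 204.9 CPM in WT CD4+, 150.1 to 702.4 in *Sirt2*-/- CD4+, 124.9 to 433.3 in WT CD8+ and 335.2 to 1320 CPM in *Sirt2*-/- CD8+ TILs.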

How the data were processed

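The authors sequenced strand-specific, ribosomal RNA-depleted libraries of TIL RNA, 4 for each of the 4 groups, and deposited 1 table of raw counts per gene. The submitters' processing notes name STAR, HTSeq and mm10, without versions. All 55450 gene identifiers matched GENCODE mouse release 21. No per-sample column was left unused.

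Tests used edgeR 4.0.16 in R 4.3.3 (TMM, filterByExpr by group, robust quasi-likelihood test, two-sided, Benjamini-Hochberg adjustment over all genes tested, threshold 0.05), after tests on simulated data. CPM were counts per 1000000 of the total counts of the library, and log2 CPM used a prior count of 2. Genotypes were compared within each cell type, cell types within each genotype, and the difference between genotype effects over all 16 libraries. Alternatives were DESeq2 1.42.0, limma-voom (limma 3.58.1) with sample quality weights, size factors of DESeq2, no filter, at least 10 counts in every library, 1 model for all 16 libraries, the replicate number as a block, leaving out each library in turn, and leaving out the 3 libraries with under 15000 genes detected.

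The 10 genes, the other lists and the tests were chosen with earlier results of these data known. The genes named were the 10, *Sirt2*, called genes of the other lists (up to 6 per list), the 3 most abundant genes of a list, and the 10 genes most like the summed level. A called gene of the lipid transport list is not reported here. No pairs were used, since the labels do not say that libraries of the same number belong together. Correlations of residuals between them ranged from −0.07 to 0.13, and no set of pairs had all above 0.1. For WT CD4+ with WT CD8+ libraries they were 0.123, 0.109, 0.115 and 0.0717. They were not compared with libraries of unlike number, so whether the numbers mark pairs was not tested. Reads carry no molecular identifiers, so limits from counts cover counting error only.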

Additional observations from a re-analysis of the deposited data

Results flagged for a closer look

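In each group of 4 libraries, the library farthest from the others was compared with the range of the group (Dixon's ratio at its 95% critical value). Of 116 groups of values, which share libraries and genes, 13 were past it. Chance gives about 1 in 20, or 5.8, only for independent normal values, so the 13 are not read as an excess. Among the 10 genes these were *Apoe* in *Sirt2*-/- CD4+ replicate 4 (123 CPM against 12.1 to 19.9), *Apoe* in WT CD8+ replicate 1 (13.2 CPM against 4.49 to 5.75), *C1qc* in *Sirt2*-/- CD4+ replicate 3 (3.04 CPM against 0 to 0.221) and the sum of *C1qa*, *C1qb*, *C1qc*, *Csf1r* and *Adgre1* in *Sirt2*-/- CD8+ replicate 4 (15.8 CPM against 1.85 to 3.43).

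The number of genes detected stood apart in *Sirt2*-/- CD4+ replicate 4 (8169 against 19159 to 20310) and WT CD8+ replicate 1 (14411 against 20105 to 20980). The melanocyte genes stood apart in WT CD4+ replicate 1 (105.7 CPM against 4.83 to 14.2), *Sirt2*-/- CD4+ replicate 4 (72.9 CPM against 10.3 to 11.95) and *Sirt2*-/- CD8+ replicate 4 (15.7 CPM against 7.41 to 8.07). In *Sirt2*-/- CD4+ replicate 4 only 2 of the 7 genes, *Mitf* and *Dct*, had a count. WT CD4+ replicate 1 also had the highest summed level of 5 erythroid genes in its group (9.9997 CPM against 0.0225 to 1.31). All of it was 1 gene, *Hba-a1*, with 280 counts. WT CD8+ replicate 1 had the lowest level of the other macrophage genes (442.6 CPM against 681.2 to 690.5). *Sirt2*-/- CD8+ replicate 4 was highest in NK cell genes (586.4 CPM against 276.6 to 314.6), and *Sirt2*-/- CD8+ replicate 3 in the genes that tell CD4+ from CD8+ cells (2360 CPM against 1961 to 2026). Of the 13 values, 3 each belonged to *Sirt2*-/- CD4+ replicate 4, *Sirt2*-/- CD8+ replicate 4 and WT CD8+ replicate 1. The cause was not tested.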

How the results depend on the processing

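Over 87 alternative fits, 1 of 717 values for a member passed the threshold, *Lyz2* between cell types in WT TILs with limma-voom (1 member called in place of 0, log2 fold change −2.70). The count of members called was otherwise 0 in every alternative, those without a library included. DESeq2 gave *Apoe* no p in CD4+ TILs or between the cell types in *Sirt2*-/- TILs, as a value with an outlier. The low level of these genes limits what can be read: beside *Apoe*, the highest median level over the 16 libraries was that of *Lyz2*, 2.17 CPM. Each cause was not tested.

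With limma-voom the sign turned for *Tyrobp* between genotypes in CD8+ TILs (−0.15), for *Adgre1* (−0.46) and *Itgam* (−1.09) in the difference between genotype effects, for *Apoe* in WT (0.0226), and for *C1qc* (0.41), *Csf1r* (−0.95), *Itgam* (−0.27) and *Fcgr3* (−0.11) between cell types in *Sirt2*-/- TILs. The replicate number was also used as a block, though the labels do not say that it pairs the samples. The sign then turned for *Tyrobp* in CD4+ TILs (−1.74). In the difference it turned for *C1qb* (0.0345), *Lyz2* (−0.39), *Itgam* (−0.36) and *Tyrobp* (1.93). Between cell types in *Sirt2*-/- TILs it turned for *C1qb* (0.34), *C1qc* (2.09) and *Csf1r* (−0.15). Without the 3 libraries with few genes it turned for *Csf1r* (−0.14) and *Fcgr3* (−0.20) in that comparison.

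Leaving out 1 library at a time, the range crossed 0 between genotypes in CD4+ TILs for *Csf1r* (−0.0455 to 1.02), *Adgre1* (−0.11 to 2.72) and *Tyrobp* (−0.36 to 1.19), and in CD8+ TILs for *Tyrobp* (−0.0488 to 0.79). In the difference it did so for *C1qa* (−0.0371 to 2.43), *C1qb* (−1.14 to 0.76), *Lyz2* (−0.0253 to 1.63), *Itgam* (−0.63 to 1.94) and *Tyrobp* (−0.84 to 0.73), in WT cell types for *Apoe* (−0.83 to 0.14), and in *Sirt2*-/- cell types for *C1qb* (−0.94 to 0.94), *C1qc* (−0.57 to 3.30), *Csf1r* (−0.91 to 0.86), *Adgre1* (−0.77 to 2.70) and *Fcgr3* (−0.26 to 0.63).

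Genes called between genotypes were 7 (DESeq2), 4 (limma-voom) and 6 (without libraries with few genes) in place of 0 in CD4+ TILs, and 28 (DESeq2), 5 (limma-voom), 5 (no filter), 4 (block) and 7 (without libraries with few genes) in place of 1 in CD8+ TILs, with 0 to 7 without 1 library. The difference had 2 with DESeq2. Between cell types they were 2651 (DESeq2), 5504 (limma-voom), 811 (1 model) and 4394 (without libraries with few genes) in place of 1765 in WT, and 1339 (DESeq2), 4481 (limma-voom), 907 (at least 10 counts), 781 (1 model), 108 (block) and 4250 (without libraries with few genes) in place of 354 in *Sirt2*-/- TILs, with 1022 to 2767 and 111 to 4250 without 1 library. The summed CPM without *Apoe* was 6.88 (WT CD4+), 15.1 (*Sirt2*-/- CD4+), 3.39 (WT CD8+) and 13.4 (*Sirt2*-/- CD8+), and it was 1.62, 4.95, 0.854 and 6.07 (in the same order) for the C1q chains, *Csf1r* and *Adgre1*. Leaving out 1 library, chosen for these 5 genes after seeing the data, their mean ranged over 1.27 to 2.17, 2.05 to 6.60, 0.618 to 1.14 and 2.83 to 7.48. That of the 10 genes ranged over 15.2 to 16.4 (WT CD4+), 32.0 to 70.2 (*Sirt2*-/- CD4+), 9.0 to 11.5 (WT CD8+) and 18.0 to 29.2 (*Sirt2*-/- CD8+).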
